A study of Homo sapiens with 66 samples.

Results

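Protocadherins are adhesion proteins of the cadherin superfamily, and their genes were followed here in 11 acute myeloid leukemia (AML) cell lines before and after etoposide. The members were chosen by name, as every protein-coding gene whose symbol starts with PCDH, which gave 66 of the 57992 genes listed in the counts. They fell into 15 genes of the alpha cluster, 16 of the beta cluster, 22 of the gamma cluster and 13 non-clustered genes. The group was picked because PCDH12 was already known to go up in the responding lines of these data. The etoposide values below are therefore a description and carry no test. Differences between untreated lines were not used in the choice, although the untreated libraries enter the change by which PCDH12 was picked. The level of PCDH11Y, which is Y-linked, is not given, and this left 65 members with values.

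The cell lines were F36P, HL60, KASUMI1, MOLM13, MONOMAC6, MV411, NB4, NOMO1, OCIAML2, OCIAML3 and THP1. Each was grown in enriched medium suited to it and exposed for 24 h either to medium alone (untreated) or to etoposide, a topoisomerase II poison that leaves DNA double-strand breaks, at a concentration set to that line's own IC50. Doses therefore differed between lines, and each library was made from 3 pooled wells, with 3 libraries per group and 66 in all. Each is an established line, so a line is 1 culture system and not a sample of patients, and the study itself set aside its etoposide-treated OCIAML2 data after quality control, so counts over lines cover the other 10 lines and OCIAML2 is described apart.

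Libraries held between 17997404 and 24101670 reads on genes. Levels are given as CPM, the reads of a gene relative to all reads of the library. The leukocyte genes PTPRC and CD33 were present in every untreated line, at 32.5 to 540 CPM and at 69.8 to 149 CPM, and F36P also carried all 8 erythroid markers examined at 1 CPM or more. A replicate is a separate library of the same line, and replicate libraries of a group differed by more than sampling noise.

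In the clustered arrays on chromosome 5, each variable exon has its own promoter. Alpha and gamma variable exons are spliced to constant exons shared by the cluster, whereas each beta gene is a single coding exon. Neurons switch on a few of these promoters per cell and use the protein mixture as a surface identity in homophilic binding, and CTCF and cohesin loop the chosen promoters to distant enhancers. The non-clustered genes lie outside these arrays, PCDH1 and PCDH12 also on chromosome 5, and are regulated singly. PCDH12, also called VE-cadherin-2, is known from endothelial cells and placental trophoblast.

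The region before the start site of PCDH12 is shown because it is the member that the etoposide values turn on, and those of PCDHAC2 and PCDHGC3 because they are the C-type genes that stood out in the untreated cells. The sequences are RefSeq windows on GRCh38.p14, 250 bases long and ending at the start site, written 5′ to 3′ along the gene. Capitals mark CGCT on either strand (AGCG where it lies on the other strand), the core of the conserved element of clustered protocadherin promoters. A match to these letters alone does not show that element, and 70.0% of all promoter windows held CGCT. PCDH12 lies on the minus strand at chr5:141958203-141958452, PCDHAC2 on the plus strand at chr5:140966226-140966475 and PCDHGC3 on the plus strand at chr5:141475716-141475965.
PCDH12: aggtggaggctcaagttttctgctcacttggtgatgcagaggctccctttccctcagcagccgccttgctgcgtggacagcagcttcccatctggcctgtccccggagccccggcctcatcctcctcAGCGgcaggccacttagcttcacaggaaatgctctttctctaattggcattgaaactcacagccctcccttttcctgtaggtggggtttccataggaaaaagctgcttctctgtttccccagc
PCDHAC2: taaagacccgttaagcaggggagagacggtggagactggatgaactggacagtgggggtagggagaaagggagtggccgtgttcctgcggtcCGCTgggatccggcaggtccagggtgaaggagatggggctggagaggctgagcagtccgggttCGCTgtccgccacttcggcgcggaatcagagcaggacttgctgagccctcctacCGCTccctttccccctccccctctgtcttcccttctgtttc
PCDHGC3: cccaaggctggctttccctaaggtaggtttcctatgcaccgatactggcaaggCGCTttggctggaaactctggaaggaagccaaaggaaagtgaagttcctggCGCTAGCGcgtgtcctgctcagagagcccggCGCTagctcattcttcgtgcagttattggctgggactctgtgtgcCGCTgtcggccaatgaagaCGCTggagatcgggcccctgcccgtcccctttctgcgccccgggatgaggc
The PCDHGC3 window held 6 matches to CGCT, that of PCDHAC2 3 and that of PCDH12 1. RNF14, on the opposite strand, starts at position 141958328, inside the PCDH12 window, and the gencode record of PCDH12 reaches further, to position 141969741.

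RefSeq windows of 300 bases, from 250 before to 50 after the start, were matched for 57 members, with 64 windows in all. CGCT was found on either strand in all 14 beta windows, all 25 gamma windows, 12 of 13 alpha windows and 10 of 12 non-clustered windows, against 70.0% of all 35116 promoter windows. GGGCGG, the core of an SP1 site, was in 45.0% of all windows but in 0 of 14 beta, 1 of 25 gamma, 1 of 13 alpha and 5 of 12 non-clustered windows. TATAAA was in 11.5% of all windows and in 1 beta, 2 gamma, 3 alpha and 2 non-clustered windows. CCGGAAG (ETS) was in 10.3% of all windows, TGANTCA (AP-1) in 7.71%, TGACGTCA (CRE) in 1.85% and CACGTG (E-box) in 7.26%. Of these 6 motifs beside CGCT, the PCDH12 window held none, and no member's window held TGACGTCA. A beta window had a median of 7.5 CpG and a gamma window of 10, and the median over all windows was 14.

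The beta promoters are shown as 30-base pieces around the CGCT nearest the start site. The reason is that all 12 beta genes tested in THP1 had negative log2 changes with etoposide. Untreated levels of the beta genes in THP1 were unequal, and PCDHB7 and PCDHB15 had too few reads to be tested there. The 9 genes shown share the longer run GGTGGCGCTG, which was picked out after the sequences had been seen. The pieces of PCDHB1, PCDHB2, PCDHB4 and PCDHB14 lack it and are not shown, and PCDHB8 had no CGCT on its own strand before the start. No window was matched for PCDHB6 and PCDHB11. PCDHB6 and PCDHB2, both abundant in THP1, are therefore missing from the pieces shown. All 9 genes shown lie on the plus strand of chromosome 5, and capitals mark CGCT.
PCDHB3: gaacgcatggtggCGCTgttgactaagaag
PCDHB5: ggacgcctggtggCGCTgcaggctaagagt
PCDHB7: aaacgcaaggtggCGCTgctggctaaaaag
PCDHB16: gaacgcgtggtggCGCTgcaggttaagatg
PCDHB9: agccacaaggtggCGCTgcagactgaagag
PCDHB10: ggccacacggtggCGCTgcaggctaaagag
PCDHB12: agacgcgtggtggCGCTgcaggataatatc
PCDHB13: ggacgcgtggtggCGCTgcaggataagaag
PCDHB15: caacgcatggtggCGCTgcaggctaaggct
On either strand this 10-letter run was in 12 of 14 beta windows, in no alpha, gamma or non-clustered window, and in 97 of all 35116 windows (0.276%). It is a match of letters and says nothing of use, since PCDHB7 and PCDHB15 hold it and had 0.135 CPM or less in every untreated line except for 0.216 CPM of PCDHB15 in NOMO1.

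The first question was which members each line transcribed before treatment. Levels for this comparison were normalized over the 33 untreated libraries. Each line was tested against the mean of the other 10 lines with the edgeR quasi-likelihood test on counts. That mean is of fitted log levels, and lines near 0 reads pull it down. A line can therefore be called higher while its CPM is below the plain mean of the others. A call was made where the FDR was under 0.05 and the change was more than 2-fold. Enough reads for the test were found for 32 members, and 26 reached a mean of 1 CPM in at least 1 untreated line. There were 111 higher and 35 lower calls among 352 member-line tests, and over all genes and lines 17.5% of tests were called higher and 8.18% lower. Of the higher calls, 50 were at levels under 1 CPM, and 94 of the tested member-line values had 0 reads, where a lower call was rarely possible and was made 7 times. With genes averaging under 1 CPM dropped there were 44 higher and 16 lower calls, and the lower calls were 20 without replicate 1 and 19 without replicate 2. Of the 32 members 12 passed the filter only through the THP1 libraries, so a higher level in THP1 was fixed for them and their calls there are a description. PCDHB11 passed only through NOMO1, PCDH18 only through OCIAML3, and PCDHGA7 only through MONOMAC6 and MV411 together. The same limit holds for their calls in those lines.

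**Figure D1:**
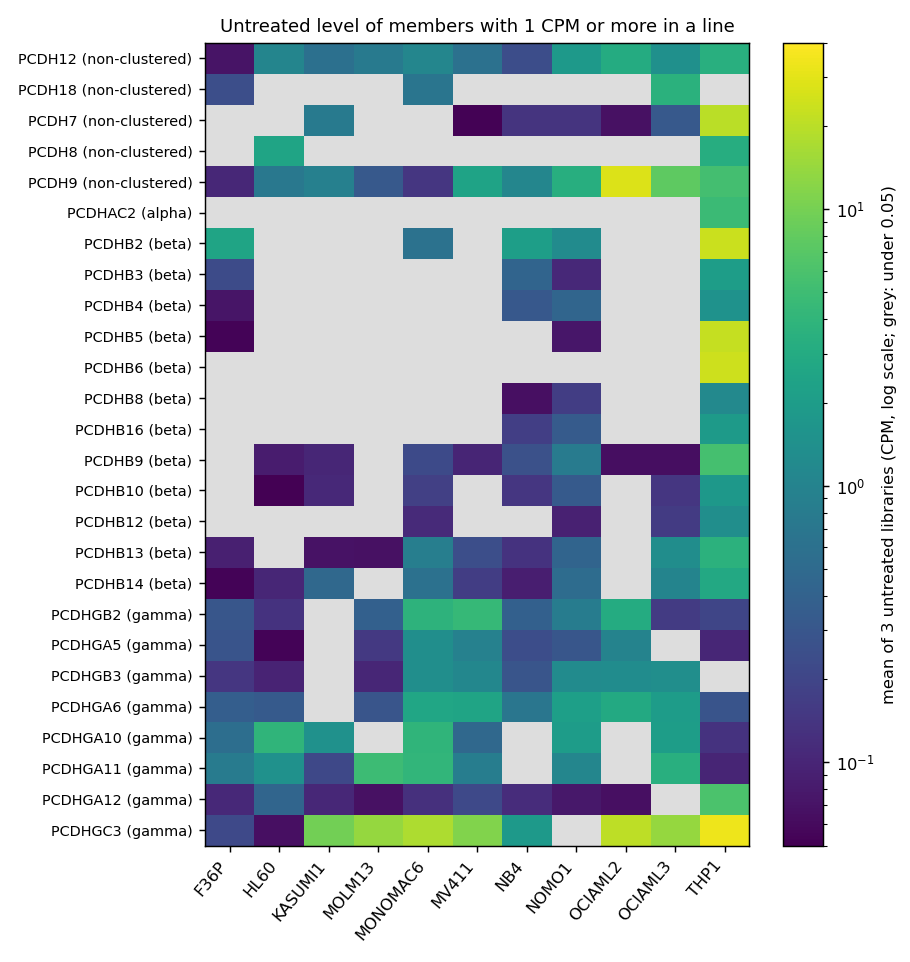
Mean CPM of 3 untreated libraries for the 26 members that reached 1 CPM in a line, with cell lines in columns, members in rows and color on a log scale. Beta genes are brightest in the THP1 column, whereas PCDHGC3 is bright in most lines and grey, meaning under 0.05 CPM, in NOMO1.

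THP1, a monocytic line, stood apart as the line with the most protocadherin RNA. Its members summed to 173 CPM, followed by OCIAML2 with 63.6 and MONOMAC6 with 42.4 CPM, and F36P had the least with 7.63 CPM. In THP1 23 of 32 members were called higher than in the mean of the other lines, 19 of them at 1 CPM or more, and 23.1% of all genes were called higher there. All 13 beta members tested were among them, but 8 of the 13 had passed the filter only through THP1, PCDHB5 and PCDHB6 included. NOMO1 had 22 higher calls, 12 of them beta genes, where 23.9% of all genes were called higher, but 7 of the 22 were at 1 CPM or more. Of the tested beta genes, PCDHB11 had passed the filter only through NOMO1. Summed over the cluster, the beta genes reached 91.3 ± 1.73 CPM (SD, n = 3) in THP1, and the next line, NOMO1, had 5.65 ± 0.337 CPM.

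The beta genes of THP1 were unequal. PCDHB6 had 23.8, 24.5 and 23.7 CPM in the 3 untreated THP1 libraries, and its highest mean elsewhere was 0.0347 CPM in NB4. PCDHB2 had 24.8, 23.3 and 21.3 CPM and was the beta gene that other lines also used, with means of 2.47 CPM in F36P, 2.14 in NB4, 1.24 in NOMO1 and 0.620 in MONOMAC6, and no reads in HL60, KASUMI1, MOLM13, MV411, OCIAML2 and OCIAML3. PCDHB5 had 23.4, 20.6 and 22.0 CPM, with at most 0.0754 CPM in any other line. These genes at the 5′ part of the array outweighed the remaining ones. PCDHB9 followed with 5.57 ± 0.179 CPM, PCDHB13 with 3.62, PCDHB14 with 2.83 and PCDHB3 with 2.09 CPM, while PCDHB1, PCDHB7, PCDHB11 and PCDHB15 stayed at or below 0.135 CPM. Beta genes resemble each other closely, so reads that fit several of them were not counted and single beta levels are uncertain to that extent.

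The C-type gene PCDHGC3 was the member read most widely. C-type genes sit at the end of their cluster and are not subject to the random choice of the others in neurons. Its mean was 33.8 CPM in THP1, 20.6 in OCIAML2, 17.5 in MONOMAC6, 14.1 in MOLM13, 13.9 in OCIAML3, 11.3 in MV411, 9.59 in KASUMI1 and 1.79 in NB4. It was nearly silent in F36P with 12 reads over 3 libraries, in HL60 with 4 and in NOMO1 with 2. Per kilobase of exon that no other gene shares, PCDHGC3 had the highest level of all members in 8 lines, from 0.551 CPM per kb in NB4 to 10.4 CPM per kb in THP1. In the remaining lines the highest level per kb was that of PCDHB2 in F36P (0.603), PCDHGA10 in HL60 (0.896) and PCDHGB3 in NOMO1 (0.489). Against the mean log level of the other lines, the 7 lines above 9 CPM were each called higher for PCDHGC3 and NB4 was not called. The 3 nearly silent lines were called lower, with adjusted p of 1.73e-11 or smaller (edgeR quasi-likelihood test with Benjamini-Hochberg adjustment). These 3 lines pull that mean down, and KASUMI1 was called higher although its CPM was below the plain mean of the others.

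The other gamma genes made a different set in each line. PCDHGA10 had 4 CPM in HL60 and 3.98 in MONOMAC6, but a mean of 0.135 CPM in THP1. PCDHGA11 led in MOLM13 with 4.89 CPM, followed by MONOMAC6 with 4.02 and OCIAML3 with 3.41 CPM. PCDHGB2 had 4.39 ± 1.14 CPM in MV411, 3.73 ± 0.131 in MONOMAC6 and 3.06 ± 0.488 in OCIAML2, and these neighbors in the order overlapped in part. PCDHGA6 was spread over OCIAML2 (2.91 CPM), MONOMAC6 (2.62), MV411 (2.46), NOMO1 (2.15) and OCIAML3 (2.01). PCDHGA12 was the reverse, with 5.98 ± 0.400 CPM in THP1 and at most 0.446 CPM in another line, and it too passed the filter through THP1 alone. MONOMAC6 had the most gamma genes called higher, 11 of 12 tested, where 19.9% of all genes were called higher, and MV411, NOMO1 and OCIAML2 had 7 each, where 11.9%, 23.9% and 16.9% of all genes were called. Among the 12 tested, PCDHGA7 had passed the filter only through MONOMAC6 and MV411.

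The alpha cluster was all but silent. Of its 15 genes, 14 stayed under 1 CPM in every group, treated or not. The exception was the C-type gene PCDHAC2, with 4.89, 4.65 and 4.76 CPM in untreated THP1 and 0 reads in the 30 untreated libraries of the other lines, where a count of 0 allows up to 0.0479 to 0.0520 CPM per line by counting error. It was tested only because of its THP1 reads, so no p is given.

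Non-clustered members were restricted as well. PCDH7, a gene of brain and heart, had 21.1, 19.5 and 19.6 CPM in THP1 and next 0.795 ± 0.453 CPM in KASUMI1. PCDH9, a neuronal protocadherin, was highest in OCIAML2 with 26.3, 29.1 and 30.0 CPM and had 7.62 ± 1.20 in OCIAML3, 5.42 ± 0.788 in THP1 and 3.27 ± 0.208 in NOMO1, all 4 called higher, and was called lower in F36P, MONOMAC6, MOLM13 and HL60. PCDH8, which neuronal activity induces in brain, was read at 3.25 CPM in THP1 and 2.49 CPM in HL60, and at most 1 read over 3 libraries was found in any other line. PCDH18 had 3.57 ± 0.753 CPM in OCIAML3, 0.673 in MONOMAC6 and 0.248 in F36P, and 0 reads in the 8 other lines.

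PCDH12 was present in all 11 untreated lines. Its mean was 3.42 ± 0.509 CPM in THP1, 3.05 ± 0.708 in OCIAML2, 1.86 ± 0.0590 in NOMO1, 1.44 ± 0.329 in OCIAML3, 1.09 ± 0.0941 in MONOMAC6, 1.06 ± 0.363 in HL60, 0.766 ± 0.104 in MOLM13, 0.601 ± 0.364 in MV411, 0.597 ± 0.0684 in KASUMI1, 0.240 ± 0.119 in NB4 and 0.0704 ± 0.0269 in F36P (SD, n = 3). THP1 and OCIAML2 overlapped, as did each neighbor in the order from OCIAML3 down to KASUMI1. Against the mean of the other lines PCDH12 was called higher in THP1 (log2 difference 2.20 ± 0.17 SE, adjusted p = 1.96e-13), OCIAML2 (2.02 ± 0.18, adjusted p = 4.44e-12) and NOMO1 (1.24 ± 0.20, adjusted p = 1.18e-06, edgeR quasi-likelihood test). It was called lower in NB4, where the 3 libraries held 14 reads together, and in F36P, where they held 4.

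The second question was how each member changed with etoposide. Levels here were normalized within each line, and untreated and treated libraries were compared line by line with the same edgeR test and limits. Of the 66 members, 37 had enough reads in at least 1 of the 10 lines, which gave 99 member-line values, and PCDH12 was the single member measured in all 10. Of the 99 values, 26 were called induced and 8 repressed, where over all genes 11.1% of values were called induced and 3.96% repressed. In 40 values all treated libraries lay above all untreated ones and in 22 below, against 31.2% and 28.6% of values over all genes. For 14 of the 99 values the treated libraries alone brought the gene past the filter, and 11 of these were called induced. For 9 values the untreated libraries alone did so, and 5 of these were called repressed. The filter itself leans such values in that direction. The choice of PCDH12 used this contrast, and nothing is read from the counts that include it.

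**Figure D2:**
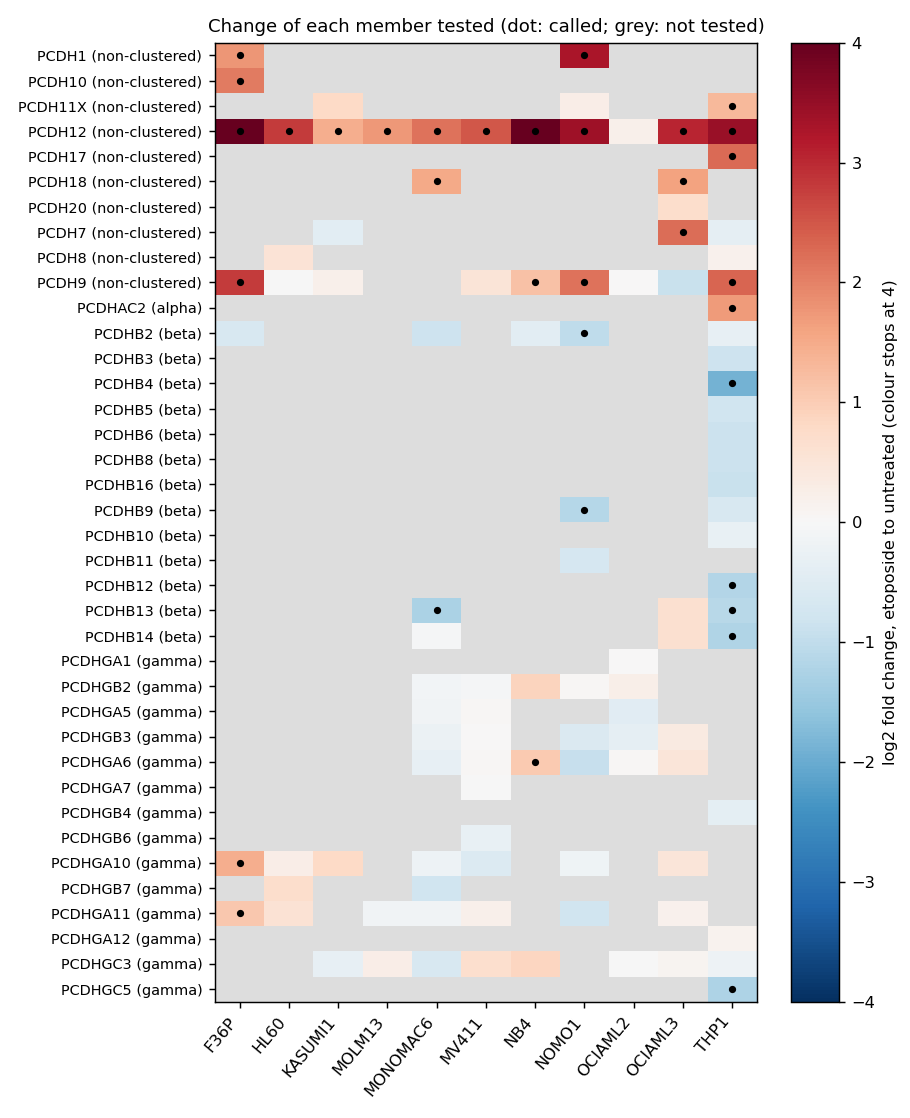
Log2 fold change of etoposide over untreated for the 38 members tested in any line, OCIAML2 included, with lines in columns, a dot for a call and grey for no test. The PCDH12 row is red in 10 lines, the dots on non-clustered genes are all red, and those on beta genes are all blue.

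PCDH12 was low before and well above after treatment in all 10 lines, with no overlap between the groups. In THP1 it had 3.92, 2.93 and 3.68 CPM untreated and 32.3, 45.7 and 36.5 CPM with etoposide. In NOMO1 the values were 2.16, 2.03 and 2.05 against 24.5, 19.7 and 21.0 CPM. In OCIAML3 they were 1.52, 1.07 and 1.77 against 11.3, 12.1 and 12.5 CPM. These lines reached the highest levels, and THP1 and NOMO1 also started highest among the 10.

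HL60 had 0.782, 1.55 and 1.08 CPM of PCDH12 untreated and 7.59, 6.93 and 9.21 CPM treated. MONOMAC6 had 1.22, 1.14 and 1.03 against 5.03, 4.60 and 5.76 CPM. MV411 had 0.262, 0.626 and 1.04 against 3.42, 3.47 and 4.01 CPM. In each of them the lowest treated library was far above the highest untreated one. MOLM13 had 0.834, 0.741 and 0.633 against 2.04, 2.56 and 2.71 CPM, and KASUMI1 had 0.659, 0.525 and 0.602 against 1.44, 1.57 and 1.88 CPM. The last 2 lines moved least.

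NB4 and F36P began near zero. NB4 had 0.305, 0.109 and 0.343 CPM untreated and 6.96, 6.15 and 4.68 CPM treated. F36P had 0.0563, 0.0579 and 0.111 CPM, which is 4 reads in all, and 4.57, 5.14 and 4.48 CPM treated, which is 292 reads. From reads alone the F36P ratio was 74.2 with an exact binomial 95% interval of 28.7 to 274, which covers counting error only.

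**Figure D3:**
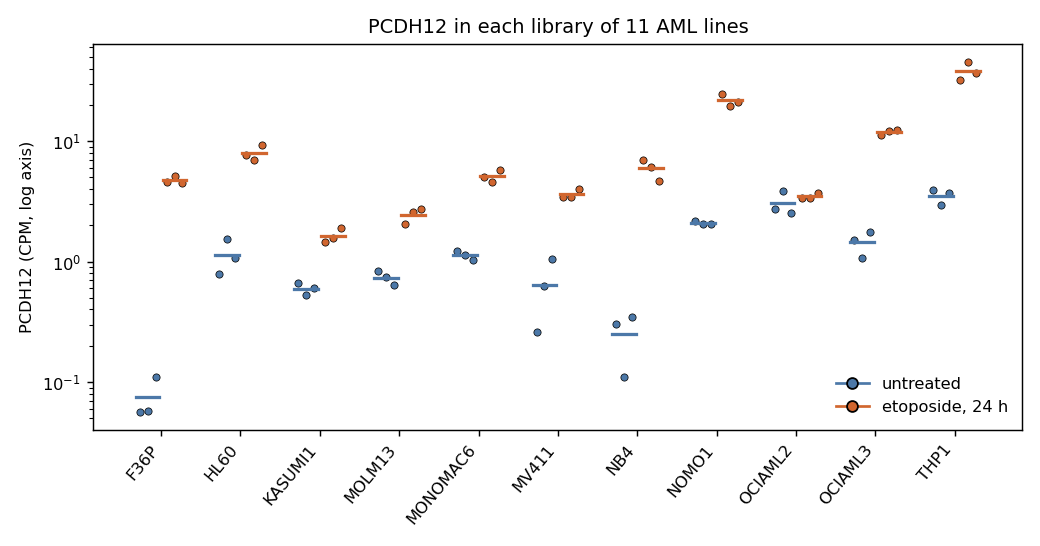
PCDH12 in CPM on a log axis in each of 66 libraries, untreated in blue and etoposide in orange, with a line for the mean of 3. Treated libraries lie above untreated ones in 10 lines and mingle with them in OCIAML2.

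On the log2 scale the change of PCDH12 was 5.85 ± 0.32 (SE) in F36P, 4.52 ± 0.31 in NB4, 3.44 ± 0.18 in THP1, 3.38 ± 0.14 in NOMO1, 3.03 ± 0.16 in OCIAML3, 2.79 ± 0.23 in HL60, 2.48 ± 0.28 in MV411, 2.18 ± 0.17 in MONOMAC6, 1.72 ± 0.23 in MOLM13 and 1.44 ± 0.24 in KASUMI1. OCIAML2 had 2.75, 3.87 and 2.55 CPM untreated and 3.39, 3.38 and 3.72 CPM treated, and its log2 change of 0.20 ± 0.17 was not called. Differences in the size of the change between lines were not tested.

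The other 12 non-clustered genes gave 23 values in the 10 lines, with 12 induced and none repressed, where 11.1% and 3.96% of values over all genes were. The treated libraries alone brought 8 of the 23 past the filter, and 7 of those 8 are among the 12 induced, so nothing is read from the count. PCDH9 was the member called in the most lines after PCDH12. In THP1 it had 6.02, 6.07 and 4.61 CPM untreated and 27.9, 22.5 and 32.9 CPM treated (log2 change 2.32 ± 0.17 SE). In NOMO1 it had 3.80, 3.77 and 3.40 against 10.9, 23.6 and 15.2 CPM (2.18 ± 0.25), so the treated libraries spread widely but stayed above. In NB4 it had 0.964, 1.47 and 0.916 against 1.87, 2.5 and 3.21 CPM (1.17 ± 0.27), and in F36P 6 reads became 51, a ratio of 8.64 with an exact binomial 95% interval of 3.71 to 24.6 (2.80 ± 0.55). PCDH9 did not move one way in every line. OCIAML3 had 9.04, 6.64 and 7.36 CPM untreated and 4.39, 4.56 and 3.38 CPM treated (log2 change -0.90 ± 0.16), a drop just under the fold limit, and in OCIAML2, where PCDH9 was highest before treatment, the change was 0.01 ± 0.07. In HL60 and KASUMI1 the groups overlapped.

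PCDH18 was induced in both of the lines in which it was tested. In OCIAML3 it had 4.08, 2.68 and 4.06 CPM untreated and 10.8, 11.5 and 10.6 CPM treated (log2 change 1.61 ± 0.16), and in MONOMAC6 0.867, 0.497 and 0.735 against 2.18, 1.90 and 1.96 CPM (1.52 ± 0.23). These were also the lines with the highest PCDH18 before treatment. PCDH1, an adhesion protein of airway epithelium and the nearest protocadherin to PCDH12 on the chromosome, was induced in NOMO1 from 0.205, 0.248 and 0.108 CPM to 2.09, 1.64 and 1.87 CPM (3.26 ± 0.34) and in F36P from 12 reads to 49 (1.78 ± 0.36). In both lines PCDH1 was close to silent before treatment.

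PCDH7 was called in 1 of the 3 lines in which it was tested. In OCIAML3 it had 0.295, 0.293 and 0.382 CPM untreated and 1.26, 1.61 and 1.78 CPM treated (log2 change 2.24 ± 0.27). In THP1 it had 21.7, 20.1 and 20.1 CPM against 13.9, 19.0 and 15.9 CPM (-0.34 ± 0.15), which was not called although the groups did not overlap. In KASUMI1 it had 1.12, 0.997 and 0.274 CPM against 0.699, 0.428 and 0.643 CPM (-0.44 ± 0.45), and the groups overlapped. PCDH17, an axonal protocadherin, was induced in THP1 from 0.419, 0.257 and 0.104 CPM to 1.24, 0.935 and 1.65 CPM (2.28 ± 0.42). PCDH10, silenced by methylation in several tumors, was induced in F36P from 9 reads to 46 (2.09 ± 0.51). PCDH11X was induced in THP1 from 29 reads to 81 (1.29 ± 0.40), and since it has a near-identical Y-linked copy its counts are uncertain. PCDH8 was not called in HL60 (0.54 ± 0.21) or THP1 (0.19 ± 0.20). PCDH20 in OCIAML3 (0.69 ± 0.47) overlapped between groups and shares 91.3% of its exon bases with another gene, and PCDH15 and PCDH19 had too few reads in every line.

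**Figure D4:**
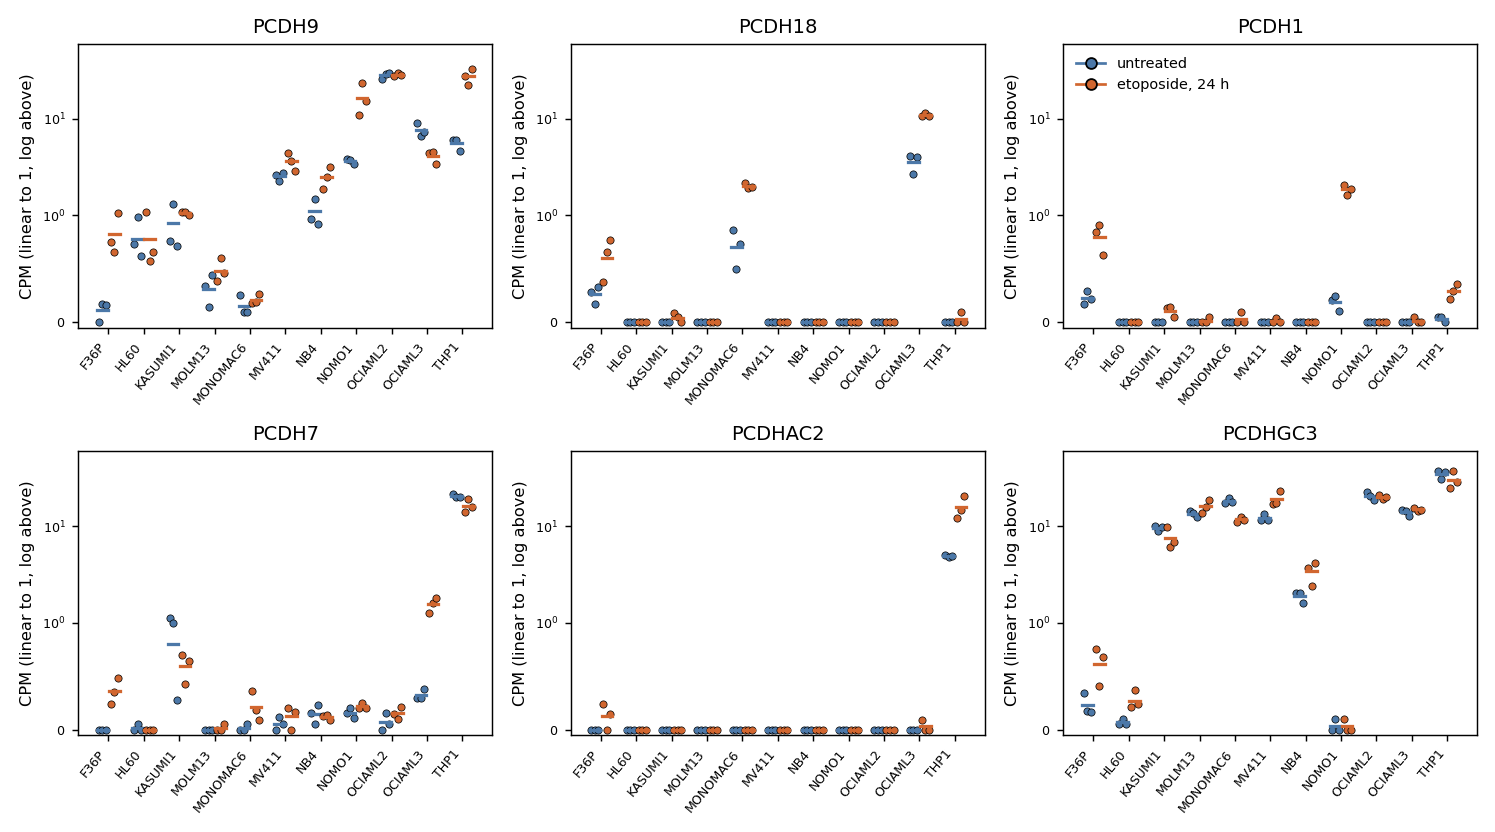
CPM of PCDH9, PCDH18, PCDH1, PCDH7, PCDHAC2 and PCDHGC3 in each of 66 libraries, on an axis that is linear to 1 CPM and logarithmic above, with untreated in blue, etoposide in orange and a line for the mean of 3. PCDHAC2 is seen in THP1 and hardly elsewhere, while PCDH9 lies higher after etoposide in THP1 and NOMO1 and lower in OCIAML3.

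In the beta cluster most tested values pointed down. Over 10 lines 22 values from 13 beta genes were measured, with 0 induced and 7 repressed against 11.1% and 3.96% of values over all genes, and 20 of 22 log2 changes were negative with a median of -0.83 (19 of 22 with library size alone as the scaling, where PCDHB14 in MONOMAC6 turned positive). The median over all genes lay between -0.03 and 0.09 in each line. Among all members, 9 values passed the filter through the untreated libraries alone, and 5 of these were called repressed. The filter leans such values downward, so nothing is read from the count of beta calls. THP1 gave 12 of the 22 values and 4 of the 7 calls, so without it the repressed calls of all members fell from 8 to 3.

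In THP1 all 12 tested beta genes had negative log2 changes, from -0.30 to -1.88, with each of the normalizations tried. In 11 of them every treated library was below every untreated one, where this held for 23.5% of all genes in THP1. The repressed calls were PCDHB4, with 1.26, 1.96 and 1.40 CPM untreated and 0.533, 0.394 and 0.313 CPM treated (-1.88 ± 0.34), PCDHB14 (-1.19 ± 0.24), PCDHB12 (-1.16 ± 0.29) and PCDHB13 (-1.11 ± 0.23), and 3.46% of all genes were called repressed in this line. PCDHB6, with 24.4, 25.2 and 24.3 CPM untreated and 12.1, 15.4 and 13.5 CPM treated (-0.85 ± 0.14), and PCDHB5, with 24.0, 21.2 and 22.6 against 12.7, 14.1 and 12.5 CPM (-0.78 ± 0.14), stayed under the fold limit although their groups were far apart. PCDHB2, the third of the abundant genes, had 25.5, 24.0 and 21.8 CPM against 17.5, 20.03 and 19.2 CPM (-0.33 ± 0.14). Summed over the cluster THP1 had 95.8, 93.3 and 92.1 CPM untreated and 54.2, 62.9 and 56.9 CPM treated. In the same libraries PCDHAC2, from the neighboring alpha cluster, had 5.02, 4.79 and 4.87 CPM untreated and 12.2, 14.8 and 20.5 CPM treated (log2 change 1.69 ± 0.19) and was called induced.

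**Figure D5:**
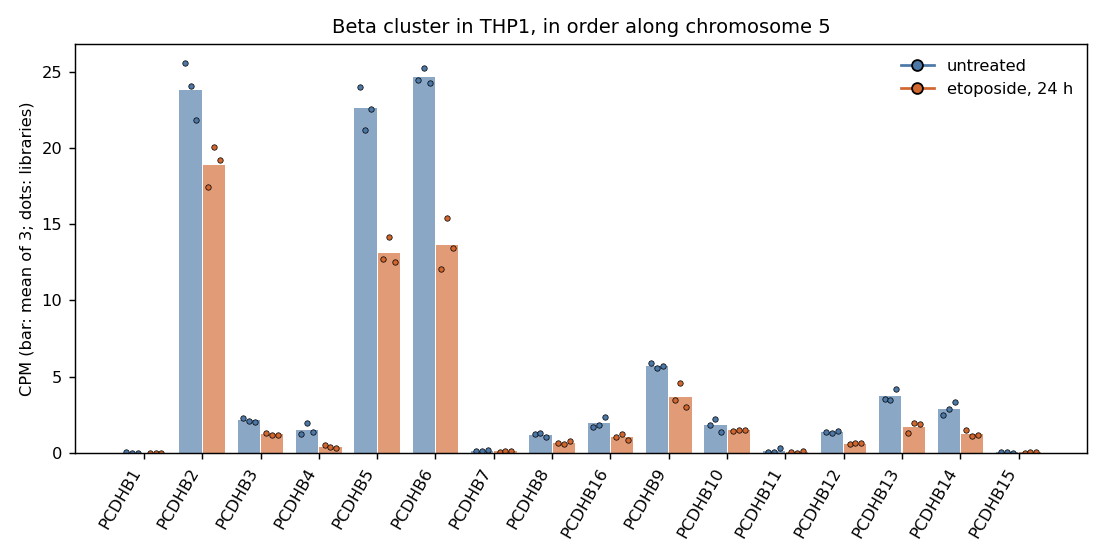
The 16 beta genes of THP1 in their order along chromosome 5, with bars for the mean CPM of 3 libraries and dots for the libraries, untreated in blue and etoposide in orange. PCDHB2, PCDHB5 and PCDHB6 stand above the rest, and the orange bars of all 12 tested genes are lower.

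Other lines had far less beta RNA. In NOMO1 PCDHB9 had 0.873, 0.991 and 0.809 CPM untreated and 0.199, 0.497 and 0.505 CPM treated (-1.15 ± 0.36), and PCDHB2 had 1.54, 1.49 and 1.13 against 1.04, 0.448 and 0.555 CPM (-1.02 ± 0.32). In MONOMAC6 PCDHB13 had 1.02, 0.894 and 0.784 against 0.401, 0.371 and 0.349 CPM (-1.25 ± 0.29). In OCIAML3 the tested beta genes went the other way, with PCDHB13 at 1.28, 1.32 and 1.43 CPM untreated and 1.82, 2.64 and 1.78 CPM treated (0.63 ± 0.21) and PCDHB14 at 0.65 ± 0.22, neither called. The cluster sum, which also takes in genes too low to test, was lower after treatment in THP1, from 6.31 to 3.71 CPM in NOMO1 and from 3.26 to 2.23 CPM in MONOMAC6. It was higher after treatment in OCIAML3 (2.88 to 4.48 CPM), MV411 (0.589 to 1.04 CPM), HL60 (0.396 to 0.879 CPM) and MOLM13 (0.131 to 0.788 CPM). The groups did not overlap in any of these 7 lines, and they overlapped in F36P, KASUMI1 and NB4. No beta gene was tested singly in MV411, HL60 or MOLM13, and the sums carry no test.

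The gamma cluster showed no common direction. Of 43 values from 13 genes, 22 were positive and 21 negative (25 and 18 with library size alone), 3 were called induced and 1 repressed (6.98% and 2.33%, against 11.1% and 3.96% over all genes). PCDHGC3, the most abundant, was called in none of its 7 lines, but its groups did not overlap in MV411 with 11.5, 13.3 and 11.6 CPM untreated and 16.9, 17.6 and 23.4 CPM treated (0.67 ± 0.12), in NB4 (0.85 ± 0.23) and, downward, in MONOMAC6 with 17.2, 19.7 and 17.6 against 11.1, 12.5 and 11.5 CPM (-0.63 ± 0.09). The induced calls were PCDHGA10 in F36P, from 0.732, 0.521 and 0.5 CPM to 1.74, 1.91 and 1.21 CPM (1.46 ± 0.29), PCDHGA11 in F36P, from 0.619, 1.10 and 0.833 to 2.12, 1.66 and 1.64 CPM (1.09 ± 0.27), and PCDHGA6 in NB4, from 0.761, 0.654 and 0.744 to 1.26, 1.29 and 1.93 CPM (1.04 ± 0.29). PCDHGC5 in THP1 was the repressed call, with 32 reads before and 15 after treatment (-1.24 ± 0.43). PCDHGA12 in THP1 (0.15 ± 0.18) and PCDHGB2 in MV411 (-0.04 ± 0.17) and MONOMAC6 (-0.10 ± 0.13) were well measured and not called.

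The members nearest the fold limit were, inside it, PCDHB2 in NOMO1 (-1.02), PCDHGA6 in NB4 (1.04) and PCDHGA11 in F36P (1.09) and, outside it, PCDHGA6 in NOMO1 (-0.92), PCDH9 in OCIAML3 (-0.90) and PCDHB16 in THP1 (-0.89). In all, 19 values had an FDR below 0.05 with a fold change under 2, those named outside the limit included. Calls that were lost when 1 replicate number was left out were PCDH9 and PCDHGA6 in NB4 (0.83 for both without replicate 3), PCDHGA11 (0.76 without replicate 1) and PCDH10 (1.49 without replicate 2) in F36P, PCDHB2 (-0.74 without replicate 2 and -1.02 without replicate 3) and PCDHB9 (-0.89 without replicate 1 and -1.25 without replicate 2) in NOMO1, and in THP1 PCDH11X (0.67 without replicate 3), PCDHB12 (-1.12 without replicate 3), PCDHB13 (-0.97 without replicate 1) and PCDHGC5 (-1.12 to -1.31 without any of the 3). DESeq2 did not call PCDHB9 in NOMO1 (-1.20) or PCDHGC5 in THP1 (-1.25), library size alone did not call PCDHB2 in NOMO1 (-0.96), and with no filter on low counts PCDHGA11 in F36P (0.98) and PCDHGC5 in THP1 (-1.24) were not called. The call of PCDHGC5 was also lost with 1 fit of 60 libraries (-1.20).

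By line, F36P had 6 induced calls among 7 tested members, where 24.3% of all genes were called induced. The treated libraries alone brought 5 of those 6 past the filter, PCDH12 among them, so the count is no support. THP1 had 5 induced and 5 repressed calls among 23 tested members, against 6.38% and 3.46% of all genes. OCIAML3 had 3 induced calls of 12, against 7.18% of all genes, and NB4 3 of 6, against 13.2%. NOMO1 had 3 induced and 2 repressed of 12, against 8.34% and 4.43%, and MONOMAC6 2 induced and 1 repressed of 13, against 8.53% and 4.47%. In HL60, KASUMI1, MOLM13 and MV411 PCDH12 was the single member called, where 5.34%, 14.6%, 8.59% and 12.5% of all genes were induced. In OCIAML2 none of 8 tested members was called by edgeR's quasi-likelihood test, its exact test or DESeq2, and none had an unadjusted p below 0.05, where 3.35% of all genes did. Log2 changes of OCIAML2 members lay between -0.44 and 0.22.

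Regulators of the clusters were read from a list of 21 genes with CTCF, the cohesin subunits and loaders, SMCHD1 and SETDB1, which silence clustered promoters, and the DNA methylation enzymes. Over 10 lines none of 210 values was called induced and 10 were called repressed (4.76%), close to the 3.96% of values over all genes. STAG1, a cohesin subunit, was repressed in 5 lines with log2 changes from -1.64 to -0.15 over the 10, TET1, which oxidizes methylated cytosine, in 3, and RAD21 and SMC3, both cohesin core subunits, in 1 each. CTCF lay between -0.71 and 0.03 and was never called. Partners of protocadherins in the cell (PTK2 and FYN kinases, the WAVE complex) and the proteases ADAM10 and gamma-secretase gave 13 induced and 1 repressed of 189 values (6.88% and 0.529%). FYN was induced in 2 lines, PTK2 was induced in 2 and repressed in 1, and ADAM10 and ADAM17 in none.

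Other cadherin superfamily genes gave 44 induced and 7 repressed calls in 149 values from 47 listed genes, which is 29.5% and 4.70%, against 11.1% and 3.96% over all genes. F36P gave 13 of the induced calls, and there the listed genes at 1 CPM or more went from 10 untreated to 18 treated. Values that passed the filter through the treated libraries alone were not counted for this list, so nothing is read from its share of calls. CDHR4 was induced in all 5 lines in which it was measured (log2 changes from 1.08 to 3.57), CDHR1 in 5 of 7, and CDH23, a hair-cell cadherin, and CDH24 in 5 of 10 each. CLSTN1 and CDH26 were not called in any of 10. CDH5, the endothelial cadherin, passed the filter in KASUMI1 alone and was called induced there (log2 change 2.54).

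PCDH12 spans chr5:141943581-141969741 on the minus strand of GRCh38, and 10 other protein-coding genes outside the PCDH family start within 500 kb of its start. They gave 10 induced and 4 repressed of 99 values (10.1% and 4.04%), close to the shares over all genes. RNF14, which starts 11.4 kb from the gencode start of PCDH12 on the other strand, was not called in any line and its log2 changes ran from -0.34 to 0.51, and DELE1, 45.9 kb away, ran from -0.40 to 0.34. ARAP3, a GTPase regulator of blood vessels and neutrophils at 288 kb, was induced in F36P, HL60, KASUMI1, MONOMAC6, MV411 and THP1 with log2 changes of 1.26 to 2.73, and in NB4 and NOMO1 it was at -0.06 and 0.10. SPRY4 was induced in 3 lines, FCHSD1 in 1, and HDAC3, RELL2 and NDFIP1 in none. PCDH1 is the other member in this window besides PCDHGC3, PCDHGC4 and PCDHGC5.

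Marker genes of other cell types were read beside these results. Over all genes 11.1% of values were called induced and 3.96% repressed. Genes that are low before treatment can pass the filter through the treated libraries alone. This was not counted for the marker lists, so nothing is read from their counts of calls. Of 10 endothelial markers, TIE1 was induced in each of the 6 lines in which it was measured (log2 changes of 1.54 to 3.34, with 65 CPM in treated NB4), and it had 0 reads in untreated HL60, OCIAML3 and THP1, where PCDH12 was also induced. CDH5 was called induced in the 1 line in which it was tested but did not exceed 2.07 CPM in any group, and KDR did not exceed 0.536 CPM. In all, 12 of 36 endothelial values were induced and 1 repressed. In the 10 lines the summed level of the endothelial list was 0.865 to 306 CPM untreated and 1.8 to 379 CPM treated, and its members PECAM1, which leukocytes also express, and EGFL7 reached the highest levels. Fibroblast markers gave 18 induced calls and none repressed in 25 values from sums of 0.123 to 9.39 CPM untreated and 2.19 to 22.4 CPM treated, neuronal markers 7 and 2 of 16 from sums of 0.0910 to 17.8 and 0.218 to 26.0 CPM, and erythroid markers 1 and 9 of 24. The leukocyte and myeloid list gave 31 induced and 6 repressed of 100 values. ITGAM, the CD11b integrin of maturing myeloid cells, was induced in 9 of 10 lines. Its log2 changes ran from 0.59 in NOMO1, the line without a call, to 5.24 in KASUMI1. In the same list TYROBP was induced in 7 lines, FCER1G in 6, LYZ in 5, CSF3R in 2 and CEBPA in 1. MPO was repressed in 5 lines, PTPRC was induced in 1 and repressed in 1, and CD33 and SPI1 were called in none. The part of these changes in the protocadherin values was not tested, and in bulk RNA fewer cells of a type and less RNA per cell cannot be told apart.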

How the data were processed

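The authors counted reads per gene with STAR 2.5.3a on GRCh38.p7 and gencode 25, and deposited these raw counts per library. The submitters' processing notes also name FastQC 0.11.5 and edgeR 3.20.1. The strand-specific column was used, reads on more than 1 gene are absent from it, and the exons that alpha or gamma genes share (a median of 46.6% and 43.8% of their exon bases) are therefore not counted. Names and positions came from gencode 44, which held 56948 of 57992 identifiers and all 66 members. A further 45 pseudoautosomal Y copies with 0 reads were left out. No column of another sample was found (0 such columns).

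Libraries held 17997404 to 24101670 reads on genes (median 20241014). Genes were filtered with filterByExpr (minimum count 10, total 15), scaled by TMM and tested with the quasi-likelihood test of edgeR 4.0.16 in R 4.3.3, with Benjamini-Hochberg adjustment over all genes tested. A call needed a change of more than 2-fold with the FDR under 0.05. Each line was fitted alone for etoposide, and the 33 untreated libraries together for levels before treatment. Alternatives used DESeq2 1.42.0, edgeR's exact test, other scalings and filters. Tables and plots were made with Python 3.11.15, pandas 2.3.3, scipy 1.17.1 and matplotlib 3.10.9. On simulated counts for THP1 the main test recovered 199 of 200 changed genes among 14789. The planted changes were larger than the fold limit and lay in genes with more reads than most members have. The simulated spread was fixed in advance, so sensitivity for members with few reads was not measured.

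Members and lists were chosen with earlier results of these data known. Members named with values were PCDH12, those called in at least 1 of 10 lines or reaching 1 CPM in a group (up to 25), the highest in each line and those nearest the fold limit. Others that are named were chosen after their values were seen. The files carry replicate numbers in every group. Deviations of same-numbered libraries correlated above 0.1 for all 3 numbers in NB4 alone (lowest 0.152). The libraries are described as biological replicates, but nothing says how the cultures were kept apart, so p-values measure the spread between these libraries. Replicates differed beyond sampling noise (chi-square per degree of freedom at least 2.05). Intervals from reads cover counting error only.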

Additional observations from a re-analysis of the deposited data

Results flagged for a closer look

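Some members moved one way in every library of some lines and the opposite way in every library of another. None of these differences between lines was tested. PCDH9 had log2 changes of 2.80 in F36P, 2.32 in THP1, 2.18 in NOMO1, 1.17 in NB4 and 0.51 in MV411, against -0.90 in OCIAML3. PCDHB13 was at 0.63 in OCIAML3, against -1.25 in MONOMAC6 and -1.11 in THP1. PCDHB14 was at 0.65 in OCIAML3 and -1.19 in THP1. PCDHGA11 was at 1.09 in F36P and -0.81 in NOMO1, and PCDHGA6 at 1.04 in NB4 and -0.92 in NOMO1. PCDHGC3 was at 0.67 in MV411 and 0.85 in NB4, against -0.63 in MONOMAC6. In OCIAML3 the direction of PCDH9, PCDHB13 and PCDHB14 was opposite to that in the other lines listed here.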

How the results depend on the processing

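PCDH12 was called induced in 10 lines under every alternative run, and all 120 of its values by line stayed on the same side. Of 277 values for other called members 257 kept their side of the limits, 20 lost the call and none turned direction. The 26 induced calls became 46 with no filter on low counts and 48 with 1 fit of 60 libraries, and ranged from 23 to 30 without one replicate number. The 8 repressed calls became 3 with a mean of at least 1 CPM, 19 with no fold change minimum and 3 without THP1, the last chosen after seeing the data, and ranged from 6 to 7 without one replicate number. In untreated lines the 111 higher calls became 44 when genes averaging under 1 CPM were dropped, and ranged from 107 to 111 without one replicate number. The 35 lower calls became 16 with that filter and 58 with DESeq2, and ranged from 19 to 30, with 20 without replicate 1 and 19 without replicate 2. The cause was not tested. Library size alone moved the median change of all genes to 0.34 in F36P, 0.21 in NB4, 0.20 in KASUMI1, 0.14 in MV411 and 0.13 in MONOMAC6. With the replicate block there were 26 induced and 8 repressed member-line calls after etoposide, and 110 higher and 34 lower calls between untreated lines. The pairing therefore changed no count by over 1.5 times. Outside NB4 the lowest correlation of same-numbered libraries ran from -0.33 to 0.089, so there the libraries share only a number. Depth limits the members with few reads, and the untreated comparison could seldom call a line at 0 reads lower.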
